A study of Arabidopsis thaliana with 48 samples.

Results

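In Arabidopsis inflorescences induced to form flowers, 150 genes declined from each day to the next for 5 days and had the largest overall declines of all genes that did so. The members were chosen from the measured values. A gene entered if its mean at day 0 was at least 5 CPM (a gene's share of all counts in a sample, times 1000000), if its mean on each day was below that of the day before, and if all 4 samples of day 5 lay below all 4 of day 0. Of 23069 genes in the table, 14969 reached the minimum at day 0, 532 of these declined at each of the 5 steps, and 475 also had no overlap between day 5 and day 0. These 475 were ranked by the log2 ratio of the day 0 mean to the day 5 mean, with 0.5 CPM added to both, and the first 150 are described here. The mirrored rule for genes that went up at each step was met by 548 genes. Because the rule used the mean of every day and the single samples of day 0 and day 5, all values of the members between days are given as a description, without a test.

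The plants were of the Col-0 accession with mutations in the floral identity genes AP1 and CAL and carried pAP1:AP1-GR, a fusion of AP1 to the hormone-binding part of the glucocorticoid receptor that is driven by the AP1 promoter. Such plants form cauliflower-like heads of inflorescence meristems, and dexamethasone lets the fusion protein enter the nucleus, which starts flower formation in many meristems at once. The groups were inflorescences at day 0 and at 1, 2, 3, 4 and 5 days after the first treatment, with 4 biological replicates each (n = 4), and all of them carried the same mutations and the same transgene. Plants grew at 21 °C in 16 h light and 8 h darkness, and 2 µM dexamethasone was applied to the inflorescences 8 h into the light period at the start and 4 h into it on each later day. Neither the age of the plants nor the hour of sampling is known from the labels. No time course without dexamethasone was analysed here, so treatment, time and growth cannot be told apart.

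Before a shoot makes flowers, MADS-box and bZIP transcription factors that act on flowering time are active at its apex. Regulators that keep stem cells and mark organ boundaries act there too, as does cytokinin. AP1 is known to bind and repress several of these genes once a flower primordium is set, among them SVP, AGL24 and SOC1. Rubisco and the other enzymes of carbon fixation are most abundant in green leaf tissue.

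The samples held 26.56 to 27.98 M counts each, summed over 2 sequencing batches of 4.50 to 10.84 M and 16.74 to 22.61 M counts. The 5 markers of inflorescence meristem and flower (STM, KNAT1, LFY, AP1 and AP3) were all present. Their summed mean was 522 CPM at day 0, 829 CPM at day 3 and 674 CPM at day 5. This sum mixes genes that moved in opposite directions. STM fell and AP3 rose at day 5 against day 0 (log2 fold changes -1.199 and 4.36), and AP1 counts do not separate the transgene from the mutant gene. Among marker lists of other cell types, the summed mean of the 3 leaf mesophyll markers in the table (of 5, with RBCS1A, itself a member, as 1 of them) was 4944 CPM at day 0 (range 4283 to 5901) and 2620 CPM at day 5 (2129 to 3101). RBCS1A made up most of this sum on both days. The 5 xylem markers summed to 74.6 CPM (64.7 to 83.5) and 44.6 CPM (34.5 to 55.4), and the 4 phloem markers of 5 in the table to 82.8 CPM (76.1 to 89.4) and 86.2 CPM (75.2 to 101). The 3 guard cell markers in the table were at 3.62 CPM (2.85 to 4.49) and 1.78 CPM (1.64 to 1.97), and the 4 trichome markers at 23.99 CPM (21.2 to 27.4) and 20.7 CPM (19.8 to 21.3). The 3 tapetum markers in the table summed to 0 to 0.334 CPM at day 0 and to 0.328 to 8.07 CPM at day 5, and the highest samples of days 1, 2 and 3 were at 6.86, 5.98 and 13.9 CPM, so single samples set their means. Markers whose symbol had no single match in the reference annotation were left out of these sums. A marker counted above as not in the table may therefore still have counts there. In such bulk samples, fewer cells of a type and less RNA per cell cannot be told apart.

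The stretch before the gene start was read for 148 members in the TAIR10.1 assembly of RefSeq, and the windows of 250 bases below are shown because they carry, or lack, the motifs compared here. The other 2 members are chloroplast-encoded and have no entry in the reference table. Capitals mark the evening element AAAATATCT in the first pair, the G-box CACGTG and the I-box GATAAG in the second pair, and the I-box in the last pair, each searched on both strands.
AT3G05730 (chr3:1694906-1695155, plus strand): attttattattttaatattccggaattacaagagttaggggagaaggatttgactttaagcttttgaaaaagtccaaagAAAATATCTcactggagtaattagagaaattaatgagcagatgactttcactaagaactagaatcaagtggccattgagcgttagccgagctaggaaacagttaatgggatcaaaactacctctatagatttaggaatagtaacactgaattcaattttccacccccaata
REM36 (chr4:15324721-15324970, minus strand): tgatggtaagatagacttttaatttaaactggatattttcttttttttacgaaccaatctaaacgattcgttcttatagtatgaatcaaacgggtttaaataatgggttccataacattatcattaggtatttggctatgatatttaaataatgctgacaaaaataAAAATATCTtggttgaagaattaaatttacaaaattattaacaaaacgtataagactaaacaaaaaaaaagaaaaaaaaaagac
RBCS2B (chr5:15382072-15382321, minus strand): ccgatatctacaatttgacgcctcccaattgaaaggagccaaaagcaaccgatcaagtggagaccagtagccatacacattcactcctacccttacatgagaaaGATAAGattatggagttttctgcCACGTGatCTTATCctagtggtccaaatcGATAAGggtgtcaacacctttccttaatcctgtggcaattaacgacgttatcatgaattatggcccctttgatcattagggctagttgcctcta
RBCS1B (chr5:15385321-15385570, minus strand): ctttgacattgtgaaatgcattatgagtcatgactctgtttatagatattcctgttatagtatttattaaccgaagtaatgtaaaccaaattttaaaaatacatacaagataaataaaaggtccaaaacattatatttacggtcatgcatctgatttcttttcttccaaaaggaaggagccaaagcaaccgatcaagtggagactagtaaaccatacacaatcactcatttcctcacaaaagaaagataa
AGL24 (chr4:12674107-12674356, minus strand): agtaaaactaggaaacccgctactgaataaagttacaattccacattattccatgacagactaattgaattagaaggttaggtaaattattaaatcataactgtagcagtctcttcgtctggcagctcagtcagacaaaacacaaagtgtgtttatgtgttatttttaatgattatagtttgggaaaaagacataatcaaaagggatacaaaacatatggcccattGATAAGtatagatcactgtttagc
FD (chr4:17004132-17004381, plus strand): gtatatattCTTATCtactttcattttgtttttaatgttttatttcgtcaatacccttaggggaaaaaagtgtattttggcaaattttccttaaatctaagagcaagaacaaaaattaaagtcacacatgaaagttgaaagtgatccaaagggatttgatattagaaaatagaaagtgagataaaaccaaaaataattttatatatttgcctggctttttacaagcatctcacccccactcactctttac
The evening element, named after its place before evening clock genes, was present in the windows of 8 members, or 5.41%, against 2.50% of the 19644 tested genes with a window. The 8 were AT3G05730, REM36, HAN, CLSY1, FBA5, PDLP6, AT3G11850 and AT4G14103. The I-box, known from light-regulated promoters, was in 14.2% of the members' windows and 12.4% of all, and the G-box in 6.08% and 7.42%. The W-box TTGACC was in 10.8% and 12.0%, the telo-box AAACCCTA in 2.70% and 3.74%, and the TCP site GGNCCCAC in 2.70% and 1.33%. The CArG box, the motif that MADS-domain proteins such as AP1 bind, was found in 0 of the 148 windows and in 2.66% of all windows. These shares are descriptions of letters in a short window and no test was made. The window of AT3G05730 overlaps another annotated gene, AT3G01735.

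The windows of the Rubisco genes RBCS2B and RBCS1B, which lie next to each other on chromosome 5, share the run aaagcaaccgatcaagtggagac of 23 bases. It starts 209 bases before the annotated start of RBCS2B and 69 bases before that of RBCS1B, so the same distance from the annotated start does not cover the same sequence in both. RBCS2B had 3 I-boxes and 1 G-box in its window, and RBCS1B had none of the 7 motifs in its own. The RBCS1B window ends in gataa, and an I-box that crosses the window edge would not be counted.

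The 150 members ranged from a log2 ratio of 4.77 for AT3G05730 down to 0.93 for PAP16, with a median of 1.27. The ratio was above 3 for 10 members, above 2 for 28, and 131 were at least 2-fold lower with the added 0.5 CPM. The last members inside rank 150 were ULT1 (0.94), AT3G59200 (0.94), EBP (0.93), AT1G14170 (0.93) and PAP16. Just outside were CRB (0.92), AT5G22090 (0.92), CHAL (0.91), AT5G45630 (0.91) and AT1G32470 (0.90), so the threshold falls in a continuous series of ratios.

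The course of the decline differed between members. The largest of the 5 daily falls in log2 CPM was the step to day 1 for 34 members, to day 2 for 32, to day 3 for 15, to day 4 for 30 and to day 5 for 39. By interpolation between days, the median member had reached 50% of its log2 fall at day 2.56, with 46 members there before day 2 and 39 after day 3. All 4 samples lay below all 4 of the day before in 58 members at the step to day 1 (6.22% of all tested genes did so), in 68 at the step to day 2 (5.46%), in 36 at the step to day 3 (1.87%), in 47 at the step to day 4 (4.73%) and in 45 at the step to day 5 (12.2%). For day 5 against day 0 the rule itself set 150 of 150, beside 19.3% of all tested genes. The rule also required the mean to fall at each step and ranked genes by the whole fall. The choice of members therefore raised the step counts too, and their excess over all tested genes is no separate result. Only 2 members had no overlap between neighbouring days at all 5 steps, so for the others at least 1 daily decline of the mean was within the range of single samples. The share of all tested genes with no overlap at all 5 steps was not counted, so this number cannot be set beside it.

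**Figure D1:**
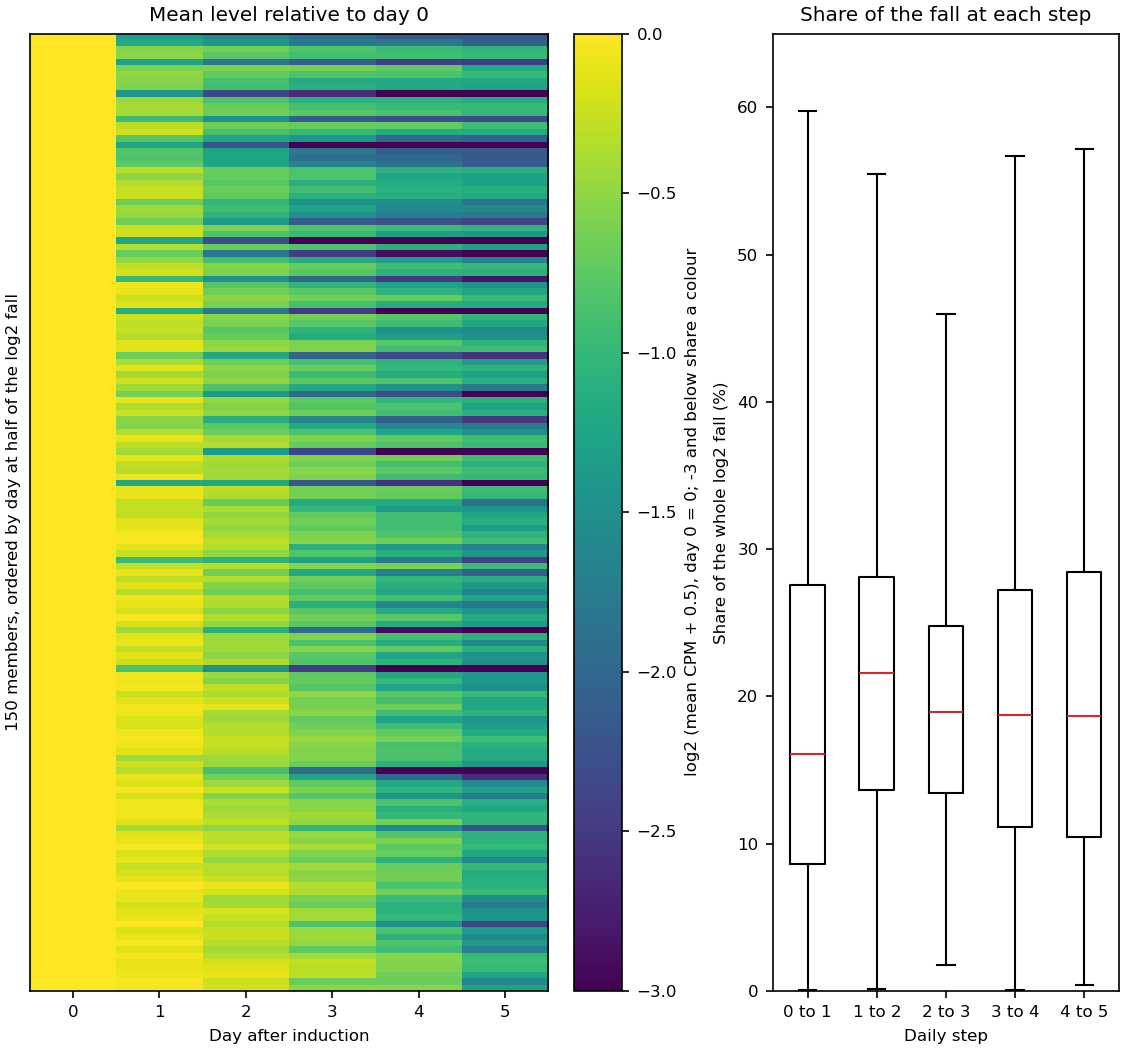
Left, mean level of the 150 members on each day as log2 (mean CPM + 0.5) relative to day 0, ordered from the earliest to the latest day at which 50% of the log2 fall was reached. Right, percent of the whole log2 fall that fell in each daily step over the 150 members (line, median; box, quartiles; whiskers, lowest and highest). The medians of the 5 steps lie between 16.1% and 21.6%, while single members have up to 59.8% in 1 step.

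Members were grouped by their known roles after they had been chosen. The 10 role groups hold 88 members and the other 62 are in none. Of the members, 34 are in the 2 groups that hold only transcription factors or regulators, and 10 of them belong to the flowering factors. Further transcription factors, such as BRC1 and HAN, are in the meristem group and not in this count.

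Among the MADS-box factors that act before flower formation, SVP, a repressor of flowering that also keeps floral organ genes off in young flowers, was at 103, 88.7, 95.2 and 113 CPM in replicates 1 to 4 at day 0. Its means then were 68.8 ± 2.70, 45.9 ± 0.763, 32.3 ± 4.11 and 23.2 ± 1.87 CPM (SD, n = 4) at days 1 to 4, and the samples of day 5 were at 19.9, 15.6, 16.5 and 16.8 CPM. The daily shares of its log2 fall lay between 16.8% and 23.1%, an almost even course, and the day 5 mean was 5.80-fold below that of day 0.

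AGL24, the closest relative of SVP and a promoter of the inflorescence state, was at 88.0, 93.0, 85.2 and 105 CPM at day 0 and at 27.3, 27.2, 26.4 and 23.3 CPM at day 5. Its decline was also even, with 22.9%, 23.6%, 18.5%, 15.2% and 19.8% of the log2 fall in the 5 steps. SOC1, which integrates flowering signals, had 205, 163, 146 and 217 CPM at day 0 and 64.6, 79.3, 83.4 and 74.0 CPM at day 5. Its lowest day 0 sample and its highest day 1 sample were 146 and 151 CPM, so the first step overlapped.

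The 3 SOC1-like genes AGL42, AGL71 and AGL72, which act with SOC1 in the floral transition of the shoot apex and axillary meristems, had log2 ratios of 1.34, 1.15 and 1.11. AGL42 had 87.6, 64.3, 74.6 and 104 CPM at day 0, and its day 1 samples of 66.7 to 85.9 CPM lay within that range. At day 5 the 4 samples were at 23.5, 36.2, 37.5 and 32.4 CPM.

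MAF4, a relative of the flowering repressor FLC, had the largest ratio of the flowering factors. It was at 6.31, 5.49, 4.13 and 6.80 CPM at day 0, at 1.86, 2.48, 1.14 and 1.72 CPM at day 1 and at 0.219, 0.147, 0.0364 and 0.219 CPM at day 5. The day 5 values rest on 17 counts in the 4 samples together, against 608 at day 0. Of its log2 fall 44.0% was in the first step, and every later day was below every day 0 sample.

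CAL, the near copy of AP1 that is mutated in this line, still gave counts in all 24 samples. It was at 20.2, 15.5, 15.9 and 21.3 CPM at day 0 and overlapped with day 1 (15.4 to 18.6 CPM), while day 5 was at 5.32, 6.77, 5.82 and 5.66 CPM. Its largest share of the fall, 37.4%, was in the last step. The deposited counts do not separate alleles, so a mutant transcript cannot be told from any other.

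The bZIP factor FD, which works with the mobile flowering signal FT at the apex, and its paralogue FDP took different courses. FD was at 166, 136, 152 and 154 CPM at day 0 and at 91.5, 91.1, 88.2 and 79.0 CPM at day 1, with no overlap, and ended at 38.3, 34.9, 37.1 and 32.9 CPM. FDP was at 56.7, 39.5, 42.7 and 53.7 CPM at day 0, at 38.6 to 46.5 CPM at day 1 and at 8.42, 17.5, 15.8 and 16.1 CPM at day 5. FD had 38.4% of its log2 fall in the first step and 2.98% in the last, and FDP had 8.17% and 45.7%. FTIP1, which helps to move FT out of companion cells, is also a member (5.75 CPM at day 0, 2.07 CPM at day 5, means).

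**Figure D2:**
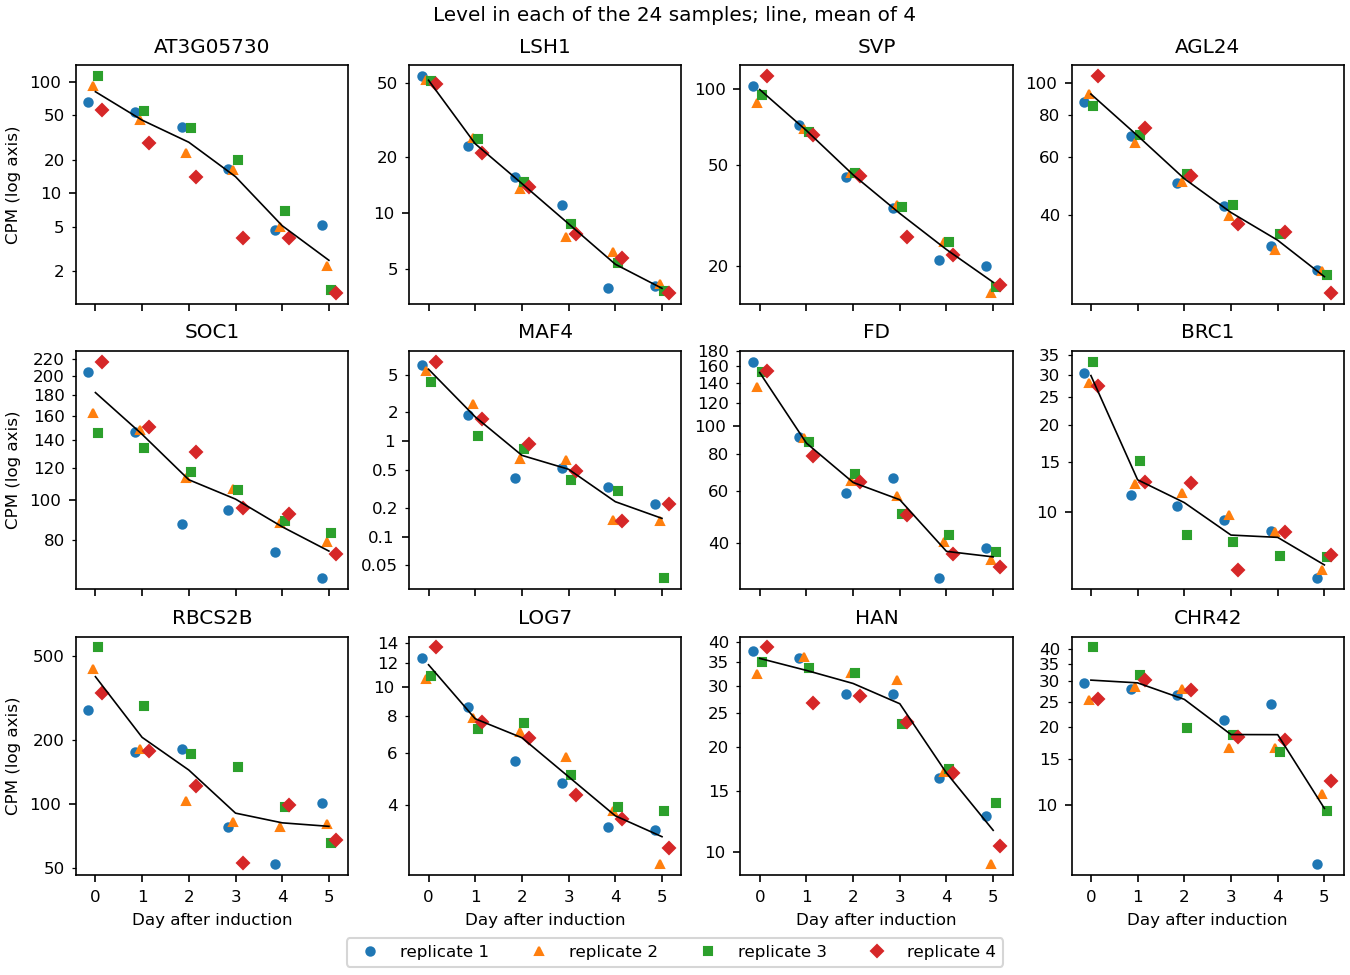
CPM (log axis) of 12 members in each of the 24 samples by day after induction, with the replicate number as colour and symbol and a line through the means of 4 samples. SVP and AGL24 decline evenly, BRC1 drops mainly by day 1, from 27.4 to 33.2 CPM to 11.5 to 15.1 CPM, and CHR42 is lowest at day 5, at 5.90 to 12.4 CPM.

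Of the floral transition and inflorescence identity list, 7 genes were members. Of the 17 other tested genes, 4 fell and 6 rose at day 5 against day 0 (edgeR quasi-likelihood test with Benjamini-Hochberg adjustment over 19747 genes, adjusted p under 0.05), where 22.9% of all tested genes fell and 24.3% rose. The median log2 fold change of these 17 was -0.08, opposite in sign to the balance of calls, and that of all tested genes was -0.01. Without replicate 3, 3 rose and 3 fell. TFL1, which keeps the apex indeterminate, fell by 1.303 ± 0.122 (log2, SE; adjusted p = 1.44e-08), and SPL15, which promotes flowering, fell by 0.66 ± 0.0902 (adjusted p = 3.41e-06). SPL5 rose by 1.04 ± 0.161 (adjusted p = 1.58e-05). Of the floral organ identity list, where CAL was the 1 member, 15 of 20 others rose and 2 fell, with a median of 1.83, and AP3, SEP2 and SEP3 rose by 4.36 ± 0.136, 2.60 ± 0.102 and 2.99 ± 0.127 (adjusted p = 9.16e-16, 2.07e-14 and 6.52e-14).

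The 12 regulators of meristem, boundary and patterning had log2 ratios of 0.94 to 3.57 with a median of 1.49, and reached 50% of the fall at a median of day 2.84. LSH1, of the ALOG family of boundary and light-response genes, had the largest. It was at 54.8, 52.3, 51.5 and 49.5 CPM at day 0, at 23.1, 25.3, 25.1 and 21.0 CPM at day 1, and at 4.04, 4.16, 3.82 and 3.73 CPM at day 5, with close replicates on each of these days. Its relative LSH3, expressed at organ boundaries, went from 90.7 to 35.4 CPM.

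BRC1, a TCP factor that holds back axillary bud outgrowth, had 55.7% of its log2 fall in the first step. It was at 30.3, 28.2, 33.2 and 27.4 CPM at day 0, at 11.5, 12.6, 15.1 and 12.7 CPM at day 1 and at 5.90, 6.29, 6.99 and 7.12 CPM at day 5. HAN, a GATA factor of organ boundaries and meristems, did the reverse. It stayed within 26.7 to 38.6 CPM over days 0 and 1, was at 16.3, 17.0, 17.3 and 16.9 CPM at day 4, and ended at 12.7, 9.24, 13.8 and 10.4 CPM. The steps to day 4 and day 5 held 40.4% and 33.0% of its fall.

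CLV1, the receptor kinase that limits stem cell number, went from a mean of 94.9 to 40.1 CPM, and ULT1, which restricts meristem size, from 48.9 to 25.3 CPM. BOP1, of organ boundaries, went from 9.60 to 4.16 CPM, and TEL2, a Mei2-like RNA-binding protein, from 22.3 to 3.73 CPM. AIL7, of the AINTEGUMENTA-like factors of the meristem, went from 28.6 to 10.3 CPM, and SAP, an F-box protein of flower development, from 20.7 to 3.95 CPM. CPC, a small MYB that inhibits trichome formation, was near the entry threshold at 5.17 CPM and ended at 2.18 CPM, and SRS7 went from 61.1 to 20.5 CPM.

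Other genes of the meristem and organ boundary list moved the same way more often than the other way. Of 18 tested genes that are not members, 14 fell and 2 rose at day 5 against day 0, with a median of -0.54, where 22.9% of all tested genes fell and 24.3% rose. STM, which keeps meristem cells undifferentiated, fell by 1.199 ± 0.0859 (edgeR adjusted p = 2.19e-10) and its homeodomain partner BLH8 by 1.62 ± 0.0836 (adjusted p = 1.40e-12), while ATH1, also a partner of STM, rose by 1.87 ± 0.0850 (adjusted p = 1.73e-13). In the daily steps, 8 of the 18 fell at the step to day 4 (0.486% of all tested genes fell) and 8 at the step to day 5 (4.42%), against 1 at each of the earlier 3 steps (5.85%, 0.415% and 0.177%). The counts that rose were 4, 2, 0, 0 and 0 in the 5 steps, where 4.21%, 1.49%, 0.694%, 0.962% and 7.75% of all tested genes rose. The 4 that rose at the step to day 1 became 2 without replicate 1, 2 or 3, and the 2 at the step to day 2 became 1 without replicate 1 or 3 and 0 without replicate 2 or 4. Without replicate 3, 1 rose at the step to day 5. With 1 replicate left out in turn, the counts that fell were 1 to 5 at the step to day 4 (1 without replicate 2) and 2 to 6 at the step to day 5 (2 without replicate 2), and 0 or 1 at the step to day 2 (0 without replicates 2, 3 or 4) and at the step to day 3 (0 without replicates 2, 3 or 4). Of the TCP list that holds BRC1, 2 of 12 others fell and 8 rose, with a median of 0.50. TCP1 fell by 1.36 ± 0.141 (adjusted p = 6.22e-08) and the leaf-type TCP10 rose by 1.92 ± 0.162 (adjusted p = 2.68e-09), and the count that rose was 4 without replicate 4.

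Among the 24 other transcription regulators, WIP5, a zinc finger protein, came nearest to 0. It was at 6.16, 6.42, 6.72 and 5.94 CPM at day 0, at 1.12, 0.708, 0.822 and 0.595 CPM at day 3, and at 0.146, 0.0736, 0.0728 and 0 CPM at day 5, where 8 counts remained in the 4 samples together. LBD19, of the lateral organ boundaries domain family, went from 24.5 to 2.66 CPM, and HB22, a homeodomain-leucine zipper factor, from 5.53 to 0.640 CPM. WRKY12 and WRKY13, which have opposite effects on flowering time in short days, both declined, from 11.6 to 4.01 CPM and from 15.6 to 4.84 CPM.

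REM36 and REM35 are B3-type factors of the reproductive meristem family, encoded side by side on chromosome 4. REM36 was at 106, 106, 133 and 113 CPM at day 0 and within 102 to 111 CPM at day 1. By day 2 it was at 74.7, 80.9, 72.7 and 67.0 CPM, below all samples of day 1, and at day 5 at 20.6, 18.5, 16.8 and 18 CPM. REM35 went from 36.7 to 8.37 CPM, with a log2 ratio of 2.07 against 2.60 for REM36.

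The next genes in the REM cluster are not members, since each did not decline at every step, but also fell at day 5 against day 0. These were named after their values were seen. REM1 went from 105 ± 15.02 to 42.5 ± 3.21 CPM (log2 fold change -1.27 ± 0.101 SE, edgeR adjusted p = 1.13e-09), AT4G31630 from 2.07 ± 0.384 to 0.137 ± 0.105 CPM (-3.85 ± 0.329, adjusted p = 3.39e-09) and AT4G31640 from 8.84 ± 0.750 to 1.79 ± 0.159 CPM (-2.28 ± 0.123, adjusted p = 2.74e-12). UTr7, on the other side of REM1, went from 29.0 ± 3.03 to 24.2 ± 1.56 CPM (-0.24, adjusted p = 0.0209). The annotated ends of REM1 and REM35 overlap on opposite strands, and the labels do not say whether the counting used strand. The REM genes are near copies that can share reads.

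The neighbours of MAF4 are near copies that can share reads. In the cluster of MAF2, MAF3, MAF4 and MAF5 on chromosome 5, MAF2 was at 65.3 ± 14.3 CPM at day 0 and 58.8 ± 6.19 CPM at day 5, MAF3 at 31.8 ± 6.27 and 27.7 ± 1.97 CPM, and MAF5 at 1.52 ± 0.363 and 1.85 ± 0.350 CPM. Their log2 fold changes were -0.13 ± 0.149, -0.17 ± 0.121 and 0.30 ± 0.228 (edgeR adjusted p = 0.514, 0.254 and 0.297), none past the threshold. The difference between MAF4 and its neighbours was not tested, since MAF4 was chosen for its decline.

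Over the genome, 7 pairs of members were direct neighbours, which involved 13 of the 148 placed members. Beside the REM and Rubisco pairs these were AT3G16660 and AT3G16670, AT1G22480 and AT1G22490, and 2 sets that each join SOC1-like MADS genes to a TRM gene, of a family of microtubule-array proteins. AGL71 and AGL72 lie beside TRM24 on chromosome 5, with 211 bases between TRM24 and AGL72, and AGL42 lies 4278 bases from TRM25. Whether the relatives AGL71 and AGL72 share reads was not tested. In both cases the MADS gene and the TRM gene face each other with their ends. TRM24 went from 22.0 ± 3.05 to 7.71 ± 1.41 CPM with 50.8% of its fall in the step to day 2, and AGL72 from 20.2 ± 3.84 to 9.09 ± 2.04 CPM with 41.3% of its fall in the step to day 5.

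**Figure D3:**
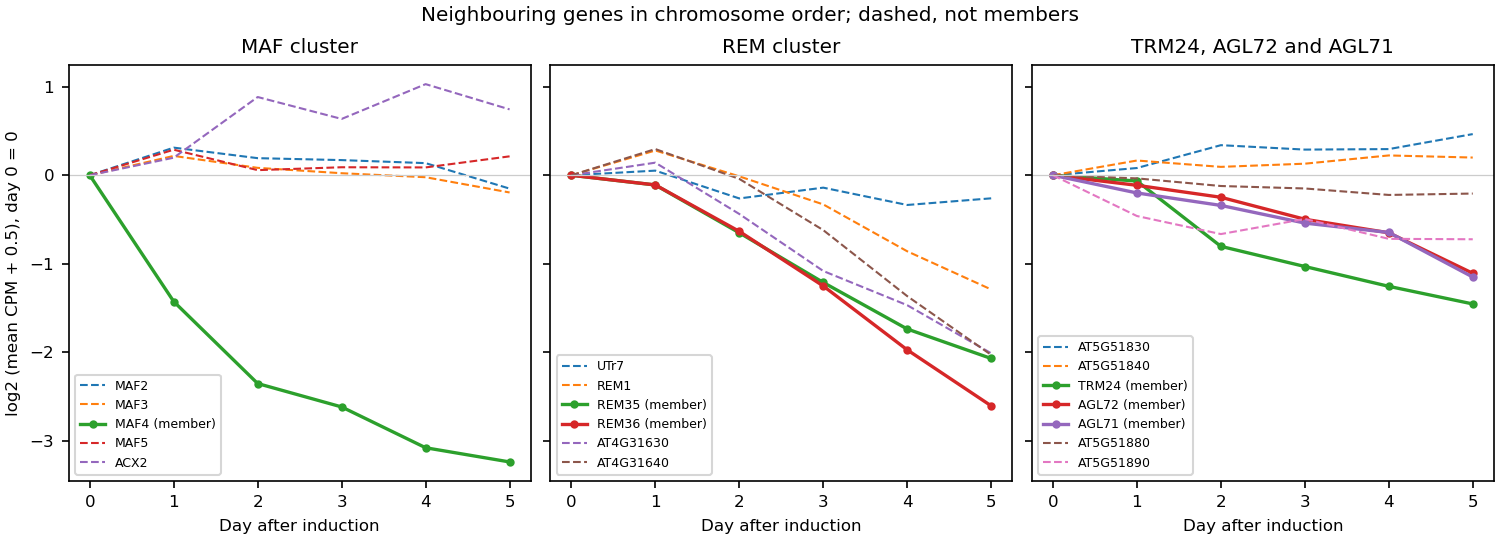
Mean level on each day as log2 (mean CPM + 0.5) relative to day 0 for genes that lie next to each other, listed in chromosome order, in 3 places; solid lines are members, dashed lines are neighbours with a day 0 mean of at least 0.5 CPM. MAF4 went down from 5.68 to 0.155 CPM beside 3 MAF genes that were not called, whereas all 5 genes from REM1 to AT4G31640 end below day 0.

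The 10 members of photosynthesis, photorespiration and the chloroplast had the earliest median course of the role groups. They reached 50% of their log2 fall at a median of day 1.51 (range 0.94 to 1.92), with a median of 39.3% of the fall in the first step and 3.27% in the fourth, against medians of 16.1% and 18.8% for all members. RBCS2B, for a small subunit of Rubisco, was at 278, 436, 548 and 335 CPM at day 0, at 176, 183, 289 and 179 CPM at day 1 and at 101, 80.4, 65.8 and 67.6 CPM at day 5. The highest sample of day 1 lay above the lowest of day 0.

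RBCS1A, the most abundant of the RBCS genes in leaves, was at 3321, 4166, 4726 and 3353 CPM at day 0, at 2550, 2723, 3202 and 2306 CPM at day 1 and at 2342, 2049, 1598 and 1800 CPM at day 5. Days 2 to 5 overlapped, and 53.0% of the log2 fall was in the first step. RBCS1B went from 400 ± 97.9 to 89.8 ± 16.6 CPM. The neighbouring RBCS3B is not a member but fell from 1056 ± 226 to 355 ± 60.9 CPM (log2 fold change -1.56 ± 0.217 SE, edgeR adjusted p = 3.89e-06). RBCS genes are near copies that can share reads.

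CA1, a chloroplast carbonic anhydrase, went from 225 to 49.6 CPM, and GOX2, the photorespiratory glycolate oxidase, from 151 to 76.0 CPM. NdhM and NdhN, subunits of the chloroplast NDH complex, had log2 ratios of 1.28 and 1.201, and CSP41A, a chloroplast RNA-binding protein, 1.14. The chloroplast-encoded ATCG00020 and ATCG00280 had 1.203 and 1.09. PolyA RNA was sequenced, and how well it measures chloroplast-encoded transcripts was not tested, so these ratios may not be comparable with those of nuclear genes. The leaf mesophyll marker sum given above declined over the same days. Most of that sum is RBCS1A, itself a member, so the sum is not separate from the members. The part of leaf tissue in these declines was not tested.

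All 18 tested genes of the Calvin cycle and photorespiration list that are not members fell at day 5 against day 0, with a median of -0.74. By edgeR, 22.9% of all tested genes fell at day 5 against day 0, and 5.85% at the step to day 1. Of the 18 list genes, 16 fell at the step to day 1 by edgeR and 17 by DESeq2, and both called 0 at each of the later 4 steps. At an unadjusted p under 0.05 in edgeR, 18 fell at the step to day 1 and 3, 0, 0 and 0 at the later steps. Without replicate 2, however, 0 of the 18 were called at the step to day 1 by edgeR (17 fell at an unadjusted p under 0.05), and without replicate 4 10 were. The 18 calls at day 5 against day 0 were the same in number without each replicate in turn. SHM1, HPR and GOX1, all of photorespiration, fell by 0.63 ± 0.0681, 0.85 ± 0.108 and 1.09 ± 0.144 (edgeR adjusted p = 1.20e-07, 1.16e-06 and 2.03e-06). GOX1 is a relative of the member GOX2, and whether they share reads was not tested. The photosystem and antenna list holds no member, but the chloroplast-encoded ATCG00020 and ATCG00280 have no reference entry and are not in it. Of its 36 genes 32 fell at day 5 against day 0, with a median of -0.63, and 28 of 36 fell at the step to day 1, a count of 1 without replicate 2 and of 17 without replicate 4.

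**Figure D4:**
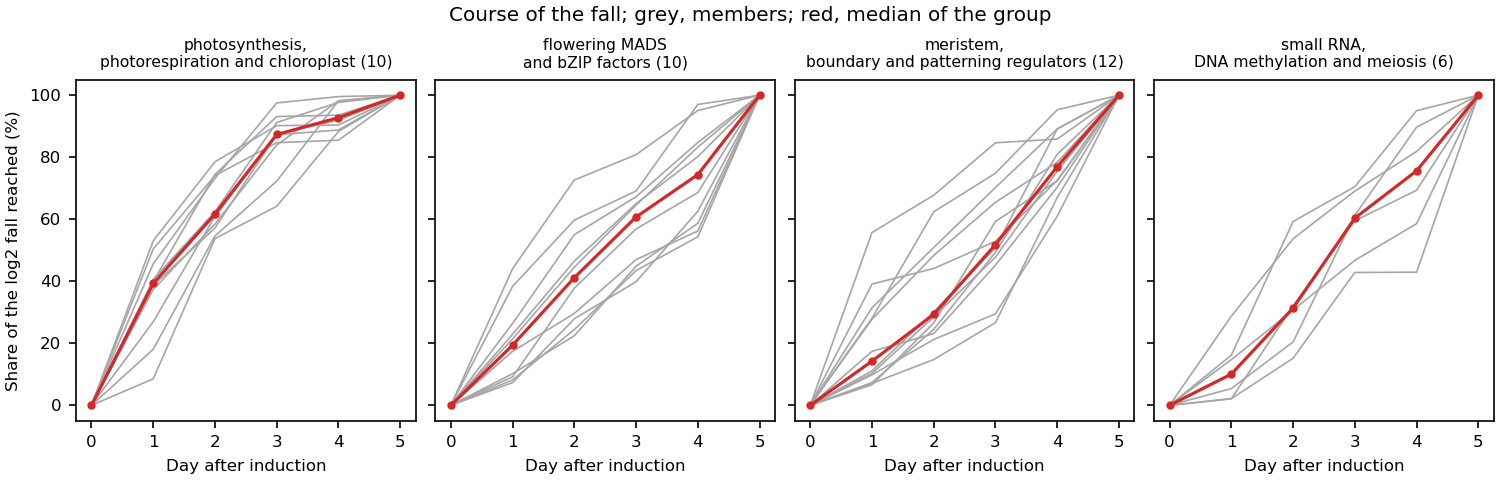
Percent of the whole log2 fall of each member that was reached by each day after induction, for 4 role groups with the number of members in brackets; grey lines are members and red lines are medians. The photosynthesis group reaches 39.3% at day 1 (median), while the meristem group has a median of 14.3% and the small RNA group of 10.08% by then.

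The 6 members of small RNA, DNA methylation and meiosis reached 50% of their log2 fall between day 1.79 (PHS1) and day 4.12 (CHR42), with a median of day 2.69 against day 2.56 for all members. CLSY1 and CHR42 (also known as CLSY2) are chromatin remodellers that help RNA polymerase IV to make the small RNAs of RNA-directed DNA methylation. CLSY1 was at 91.5, 87.2, 94.9 and 83.0 CPM at day 0 and at 34.7, 38.6, 39.2 and 40.8 CPM at day 5, with 41.4% of the fall in the last step. CHR42 was at 29.7, 25.5, 40.6 and 25.7 CPM at day 0, at 24.5, 16.5, 15.9 and 17.7 CPM at day 4 and at 5.90, 11.0, 9.50 and 12.4 CPM at day 5. Days 0 and 1 of CHR42 overlapped, and 57.1% of its fall was in the last step.

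IDN2, which acts in the same methylation pathway, went from 203 to 106 CPM, and AGO5, an Argonaute of reproductive tissue, from 48.9 to 13.4 CPM. The meiotic genes ASY1, of the chromosome axis, and PHS1, needed for chromosome pairing, went from 9.30 to 2.64 and from 8.72 to 3.01 CPM.

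Of the hormone genes, LOG7 and LOG4 encode enzymes that release active cytokinin. LOG7 was at 12.5, 10.6, 10.8 and 13.6 CPM at day 0 and at 8.56, 7.88, 7.23 and 7.61 CPM at day 1, with no overlap, and ended at 3.32, 2.54, 3.82 and 2.89 CPM. LOG4 went from 14.5 to 4.81 CPM. GA20OX1, of gibberellin synthesis, went from 8.67 to 2.60 CPM.

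Of the other 22 tested cytokinin genes, 6 fell and 7 rose at day 5 against day 0, with a median of -0.03. Over all tested genes, 22.9% fell and 24.3% rose. LOG3, of the same family as LOG4 and LOG7, rose by 3.44 ± 0.222 (edgeR adjusted p = 3.97e-11), and the cytokinin oxidase CKX1 rose by 3.05 ± 0.244 (adjusted p = 1.22e-09). AHP6, an inhibitor of cytokinin signalling, fell by 2.49 ± 0.182 (adjusted p = 2.94e-10). Of the gibberellin list, 4 of 23 others fell and 10 rose, with a median of 0.13, among them RGL2 (2.55 ± 0.153, adjusted p = 1.25e-11), GID1B (1.66 ± 0.129, adjusted p = 7.34e-10) and GA2OX8 (3.96 ± 0.343, adjusted p = 4.14e-09), a repressor, a receptor and an inactivating enzyme.

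Secreted proteins took ranks 1, 2, 3, 7 and 8 by log2 ratio. AT3G05730, annotated as a defensin-like protein, was at 65.4, 91.5, 113 and 56.3 CPM at day 0, at 39.3, 23.0, 38.7 and 13.9 CPM at day 2 and at 5.14, 2.25, 1.35 and 1.28 CPM at day 5. AT3G16670 and AT3G16660, neighbours with Ole e 1 domains, had log2 ratios of 4.14 and 3.46. AT3G16670 was at 24.7, 31.0, 43.0 and 21.8 CPM at day 0 and at 2.95, 0.773, 1.02 and 0.183 CPM at day 5, with replicate 1 highest and replicate 4 lowest.

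AT2G33850 was at 26.6, 35.6, 22.6 and 13.9 CPM at day 0, at 8.25 to 11.7 CPM at day 1 and at 0.984, 1.14, 0.910 and 0.803 CPM at day 5. XTH15, of a family of enzymes that remodel wall xyloglucan, had the largest share of its fall in the first step of all members, 59.8%. It was at 151, 141, 134 and 157 CPM at day 0 and at 35.8, 41.8, 101 and 56.5 CPM at day 1, and the days from 1 to 5 overlapped. XTH28 and CALS5, a callose synthase of pollen wall formation, were near the lower end, with log2 ratios of 0.95 each. Of the 17 other tested genes of the expansin and wall growth list, 1 fell (2 without replicate 3) and 13 rose, with a median of 0.61, among them EXPA1 (2.72 ± 0.229, edgeR adjusted p = 2.56e-09) and EXPA10 (1.42 ± 0.223, adjusted p = 1.80e-05). XTH24, of the XTH15 family, rose by 1.68 ± 0.252 (adjusted p = 1.05e-05). Among all tested genes, 22.9% fell and 24.3% rose at day 5 against day 0.

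The 5 members of cell cycle and cytoskeleton include KRP2 and KRP5, inhibitors of cyclin-dependent kinases, which went from 50.6 to 23.2 and from 42.0 to 14.6 CPM, and the kinesin ARK3, from 244 to 118 CPM. Of 29 other tested genes of the S-phase and mitosis list, 9 fell and 3 rose, with a median of -0.06, and 5 fell and 2 rose without replicate 4. Without replicate 2, 6 fell. At day 5 against day 0, 22.9% of all tested genes fell and 24.3% rose. CYCD3;2 fell by 0.70 ± 0.0740 and CYCB1;1 by 0.34 ± 0.0566, and CYCB2;1 rose by 0.55 ± 0.0900 (edgeR adjusted p = 7.78e-08, 3.48e-05 and 3.09e-05).

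PUM10, a Pumilio RNA-binding protein, went from 5.98 to 0.164 CPM and PUM12 from 8.98 to 3.93 CPM. The 5 receptor-like kinases had log2 ratios of 0.97 to 1.80, with CRK22 and WAK2, a wall-associated kinase, at 1.80 and 1.67. In the phloem list, which holds FTIP1, 2 of 15 others fell (1 without replicate 2 or 3) and 8 rose, with a median of 0.51. For this list and the trichome list, the shares over all tested genes were 22.9% fell and 24.3% rose. SULTR2;1 fell by 1.12 ± 0.136, and SWEET11, a sucrose exporter, rose by 1.32 ± 0.175 (edgeR adjusted p = 6.33e-07 and 2.03e-06). In the trichome list, which holds CPC, 2 of 11 fell and 4 rose, with a median of 0.36. TRY and ETC3, of the family of CPC, rose by 3.29 ± 0.169 and 4.01 ± 0.401, and GL2 fell by 1.39 ± 0.118 (adjusted p = 1.40e-12, 3.77e-08 and 2.70e-09).

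The 62 members in no role group had a median log2 ratio of 1.16 and 50% of the fall at a median of day 2.54. Among them AT4G17990 was at a mean of 6.47 CPM at day 0 and 0.0639 CPM at day 5, from 692 and 7 counts in the 4 samples together. FBA5, an aldolase, went from 44.6 to 12.2 CPM, ABCG4, a transporter, from 11.6 to 3.86 CPM, and UMAMIT23, of a family of amino acid transporters, from 10.7 to 3.67 CPM. FRO8, a ferric reductase, had 55.5% of its fall in the step to day 2, AT1G64100 had 56.7% in the step to day 4, and AT2G26695 had 46.5% in the step to day 5. Of the 62, 8 have a product annotated as uncharacterized or of unknown function.

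How the replicates of a day differ was not used by the rule, apart from the separation of day 5 from day 0, and was tested over all genes with day as a term. By edgeR, 0 of 19747 genes were called for the replicate number (0% called), and 1339 (6.78%) had an unadjusted p under 0.05. Of the members, 17 of 150 (11.3%) had such a p, and the lowest adjusted p of a member was 0.445, shared by AT3G16670 and AT3G05730. By DESeq2, 26 genes were called, 2 of them members, AT3G16670 (adjusted p = 0.00395) and AT3G16660 (adjusted p = 0.0172). Without replicate 1, edgeR called 1 gene, AT3G16670 (adjusted p = 0.0134).

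Replicate 4 lay below the mean of its day on 6 of 6 days in AT3G16670, AT3G05730 and AT3G16660, by a mean of -0.97, -0.73 and -0.61 on the log2 scale. The largest deviation was at day 3, where AT3G16670 was at 1.45 CPM in replicate 4 and at 8.12 to 10.01 CPM in the others. These genes were picked for their low p for the replicate number. Replicate 4 was also below the day mean on 6 of 6 days in REM36, AT1G04800, TEL2, SAP, CRK22, AT3G58770, ERF12, UGT71C3 and GATA9. In other members, such as LBD19 and ASY1, it was above the day mean on 6 of 6 days. The SD within a day, pooled over the 6 days on the log2 scale, had a median of 0.181 for the members and 0.145 for all tested genes. It was 0.799 for AT3G16670, the highest of the members, 0.128 for SVP, 0.0911 for AGL24 and 0.0816 for ORP2A, the lowest.

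**Figure D5:**
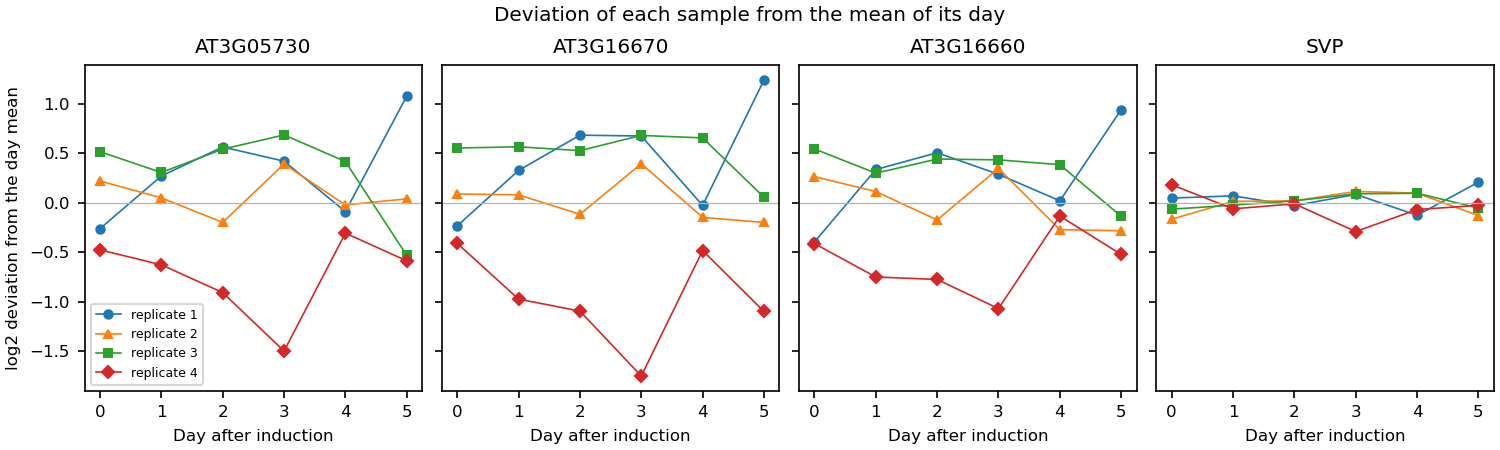
Deviation of each sample from the mean of its day (log2 scale) by day after induction for 3 members of the secreted group and for SVP, with the replicate number as colour and symbol. Replicate 4 (diamonds) is below the day mean on all 6 days in AT3G05730, AT3G16670 and AT3G16660, as in some other members. In SVP it is below on 5 of 6 days, and the samples lie between -0.29 (day 3, replicate 4) and 0.21 (day 5, replicate 1).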

How the data were processed

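PolyA RNA of inflorescences was sequenced in 2 batches per sample, per the labels. The submitters' processing notes name TAIR10 and the tools Salmon 0.12.0, Trim Galore, FastQC and DESeq2, with no role or order. The authors deposited 1 table of expected counts by gene, given as whole numbers with a column for each run (48 columns). No source used here says which tool made it. Replicates are called biological, and p-values measure the spread between them.

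The 2 runs of a sample were summed, since a chi-square test per degree of freedom gave 1.05 to 1.23 for the 24 pairs of runs, close to counting error, and 3.62 to 62.4 for 36 pairs of replicates of 1 day. CPM are counts over the column total, with 0.5 CPM added before log2 ratios, so ratios of low genes are understated. Genes were tested with edgeR 4.0.16 on R 4.3.3 (quasi-likelihood F-test) with TMM, all 24 samples, day as factor, filterByExpr by day (minimum count 10, total 15; 19747 genes tested, all 150 members among them) and Benjamini-Hochberg adjustment over all tested genes, called under 0.05. The SE is the log2 fold change over the square root of F. The test was also run on simulated counts with the same spread setting for every gene and independent samples. The data differ from that setting, so the simulated run does not give the error rate here. Alternatives were DESeq2 1.42.0, other size factors, no filter, the replicate number as a block, each batch alone, other pseudocounts, and each replicate left out in turn.

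The members, the 27 gene lists, the role groups and the naming rule were set with earlier results of these data known. Of the lists, 11 hold 24 of the members, and counts of other list genes are given for these 11 and for the photosystem list, added because of the Rubisco members. Named are the members of rank 1 to 25, members in a list, members with the largest share of the fall in each step, members at the rank threshold, transcription regulators and up to 3 other genes per list by adjusted p. Some of these are left out of the text, and further genes named were chosen after their values were seen. Gene names come from RefSeq's TAIR10.1 table, which held 22856 of the 23069 genes. Counts do not separate the AP1 transgene from the mutant gene.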

Additional observations from a re-analysis of the deposited data

Results flagged for a closer look

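In 23 members whose samples were examined singly, 138 groups of 4 samples of 1 day were checked for a sample far from the other 3 (Dixon's test at 95%, where chance gives about 1 in 20), and 6 had one. At day 3, replicate 4 was the low sample in 3 members. AT3G16660 was at 1.15 CPM there (the others at 3.73 to 4.18 CPM), SVP at 26.1 CPM (34.0 to 34.7 CPM) and CAL at 8.66 CPM (12.5 to 12.9 CPM). BRC1 was at 7.05 CPM in replicate 3 of day 4 (8.54 to 8.60 CPM in the others). RBCS2B was at 289 CPM in replicate 3 of day 1 (176 to 183 CPM), and CHR42 at 19.8 CPM in replicate 3 of day 2 (26.7 to 28.1 CPM). What set these samples apart was not tested.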

How the results depend on the processing

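The number of genes that met the rule was 475 and stayed within 404 to 599 with other scalings, each batch alone or no minimum at day 0, and within 380 to 618 with each replicate left out. Of the 150 members, 129 stayed among the first 150 with TMM scaling, 127 with size factors of the DESeq2 kind, 115 with batch 1 and 132 with batch 2 alone, 147 and 141 with 0.1 and 2 CPM added, and 105 to 119 with 1 replicate left out. The scalings moved the median log2 ratio of day 5 to day 0 over tested genes between -0.03 and 0.00211. Of 552 values of 46 member ratios, 26 moved by more than the spread. None reversed, but the rule had put all day 5 samples of a member below all its day 0 samples. Leaving out a replicate or changing the added CPM therefore could not reverse a ratio. Genes called for the replicate number were 26 with DESeq2 (2 members) and 0 to 8 with 1 replicate left out (0 to 1 members), against 0. Without day 5 replicate 1, an alternative added after seeing the data, 538 genes met the rule, 132 members stayed in the first 150 and the replicate number called 0 genes. Counts of the non-member list genes, over the 11 lists, were for the step to day 1 32 fell (3 to 36 with 1 replicate, or day 5 replicate 1, left out) and 31 rose (19 to 36). For day 2 they were 2 (0 to 3) and 20 (10 to 22), for day 3 1 (0 to 2) and 7 (0 to 13), for day 4 10 (2 to 13) and 8 (1 to 9), and for day 5 against day 4 21 (7 to 23) and 20 (4 to 30). At the step to day 3, DESeq2 gave 3 fell and 15 rose, and the fit without day 5 replicate 1 gave 2 and 13. For day 5 against day 0 they were 64 (58 to 70) and 76 (67 to 78 over all alternatives). The replicate numbers were not taken to pair samples across days, since 17 of 60 correlations of same-numbered deviations from the day means were above 0.1 (-0.312 to 0.604, median 0.0456) and 35 of 120 times a sample correlated best with its own number on another day. Replicate 4 stood apart in this, with 14 of 15 correlations above 0 and all 6 among days 2 to 5 at 0.138 to 0.604. With the replicate block 64 fell and 77 rose. The block changed no call of a named gene. MAF2, not called, reversed in sign without replicate 4 (range -0.22 to 0.0456 with 1 replicate left out). The causes of these moves were not tested. Members at day 5 with few counts, such as AT4G17990 (7), WIP5 (8) and MAF4 (17), limit what the ratio can show.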
